A study of Mus musculus with 4 samples.

Results

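DNA replication and G1/S genes encode the proteins that take a cell from G1 into S phase and copy its DNA. In late G1 the origin recognition complex, CDC6 and CDT1 load the MCM helicase onto origins, and cyclin E with its kinase then helps to start synthesis. CDC45 and the GINS proteins switch the loaded helicase on, after which primase, the polymerases, the PCNA clamp and the nucleotide-supplying enzymes copy the strands, many of these genes being targets of E2F transcription factors. Hepatocytes of adult liver are mostly quiescent and re-enter the cycle after injury such as acetaminophen overdose, in which a reactive metabolite of the drug kills pericentral hepatocytes.

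The list held 46 genes chosen by symbol, among 30827 genes that the array annotation names. A probe set of their own measured 45 of them, 1 per gene. Orc5, an origin recognition subunit gene, shared its probe set with a pseudogene and is left out of all counts. Of the 45, 42 had a mean over the arrays at or above 4.32, the 40th percentile of gene means, and 3 (Orc1, Cdc6 and Fen1) lay below it and are called dim. Closest to that level were Uhrf1, with a mean of 4.41, and Cdc6, with 4.19. All values are deposited log2 levels of mouse liver RNA, and all differences are log2 differences between arrays, in which 1 unit is 2-fold.

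The study set liver with and without YAP, a coactivator held in check by Hippo signalling, before and after acetaminophen. There were 4 arrays, each with RNA pooled from 3 male mice: Wildtype and YAP-KO livers of fasted mice at 0 h, and livers of both genotypes 24 h after an intraperitoneal dose of 300 mg/kg. The animals labelled Wildtype carried the floxed Yap allele, and the part of Yap1 removed, the Cre used and the cells it acts in are not given in the sources used here. Since each group is a single array, no difference has a replicate check or a test and differences are given by size. A pool hides the spread between mice, and no 24 h array without the drug was analysed here. Time and acetaminophen therefore cannot be told apart, and "response" below means 24 h minus 0 h.

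The arrays were checked first against their labels. Yap1 read 7.54 (wildtype) and 6.31 (YAP-KO) at 0 h, and the 24 h levels were 8.24 and 6.01, so the YAP-KO minus wildtype difference was -1.23 and then -2.23. The hepatocyte genes Alb and Ttr, encoding albumin and transthyretin, were at the ceiling of all 4 arrays. No replication gene was at the ceiling on any array. Array medians over the named genes lay between 4.69 and 4.79.

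**Figure D1:**
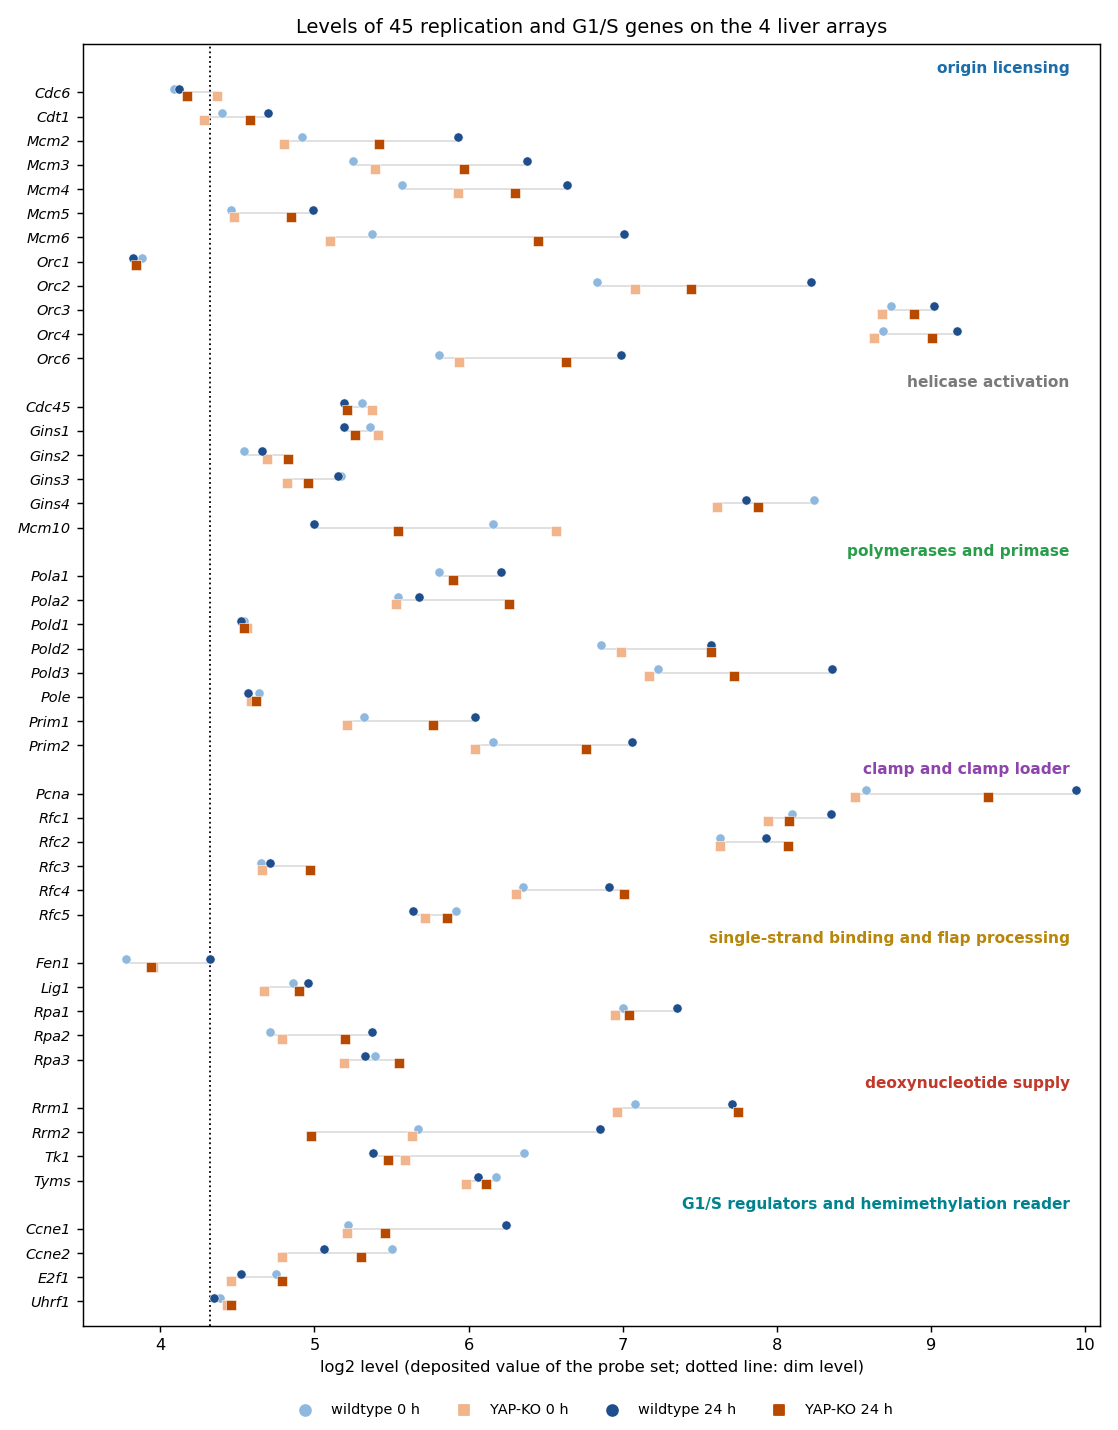
Log2 level (x axis) of each of the 45 genes (y axis, grouped by role) on the wildtype (circles) and YAP-KO (squares) arrays at 0 h (pale) and 24 h (dark), with the dim level of 4.32 as a dotted line; points have no error bars because there is 1 array per group. The dark points of Mcm2 to Mcm6, Pcna and Orc6 lie to the right of both pale points, those of Mcm10 to the left, and Rrm2 is highest in wildtype and lowest in YAP-KO at 24 h.

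In wildtype liver 6 of 12 origin licensing genes (Mcm2, Mcm3, Mcm4, Mcm6, Orc2 and Orc6), the clamp gene Pcna, both primase genes, Pold2 and Pold3 of DNA polymerase delta, and the cyclin E1 gene Ccne1 were higher at 24 h, while none of the 6 helicase activation genes was. At least 1.5-fold higher (0.585 log2 units) were 15 of 45, or 33.3%, where 14.2% of all named genes and 23.3% of the 18500 genes that were not dim were as much higher. Lower by as much were 2 of 45 (Tk1 and Mcm10), beside 9.05% of all named genes and 12.0% of those not dim. At 2-fold 10 of 45 were higher (22.2%, against 7.65% and 12.7%) and 1 was lower (against 3.69% and 5.88%). The median of the 45 differences was 0.30, against -0.08 over all named genes and 0.07 over those not dim. In bulk liver, more cells that express a gene and more of its RNA per cell cannot be told apart.

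In YAP-KO liver fewer of the genes were 1.5-fold higher, and so were fewer genes of the array as a whole. Higher were 8 of 45 (17.8%), where 8.35% of all named genes and 13.5% of those not dim were, and 2 were lower (Mcm10 and Rrm2), where 4.97% and 6.02% were. Only Mcm6 was 2-fold higher, beside 2.87% of all named genes and 4.74% of those not dim, and only Mcm10 was 2-fold lower, beside 1.46% and 2.22%. The median was 0.30, against -0.02 over all named genes and 0.07 over those not dim. Of the 45 differences 35 were above 0, against 30 in wildtype, and the share above 0 over all genes was not counted. The equality of the medians depended on the setting. They stayed close after centring (0.40 in wildtype and 0.35 in YAP-KO) and quantile normalization (0.16 and 0.21). They lay further apart over the 26 brighter genes (0.59 and 0.38) and from the other genotype's 0 h array (0.34 and 0.16). Both genotypes had 6 of the genes at 1.5-fold (Mcm2, Mcm6, Orc6, Prim2, Pcna and Rrm1), which is 40% of the 15 in wildtype and 75% of the 8 in YAP-KO. The same overlap over all genes was not counted, so these 2 shares have no background. A further 4 lay within 0.05 below the 1.5-fold level in YAP-KO and 2 in wildtype, so these counts are sensitive to where the level is set.

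Across all 4 arrays, 24 of the 45 genes (53.3%) had both 24 h levels above both 0 h levels. The same held for 22.2% of all named genes and 34.5% of those not dim. Both 24 h levels were below both 0 h levels for 4 genes (8.89%: Mcm10, Cdc45, Gins1 and Tk1), against 31.7% and 21.6%. By genotype the arrays separated less often: both YAP-KO levels were above both wildtype levels for 3 genes (6.67%, against 11.1% and 8.16%) and below them for 3 (6.67%, against 9.03% and 10.7%).

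**Figure D2:**
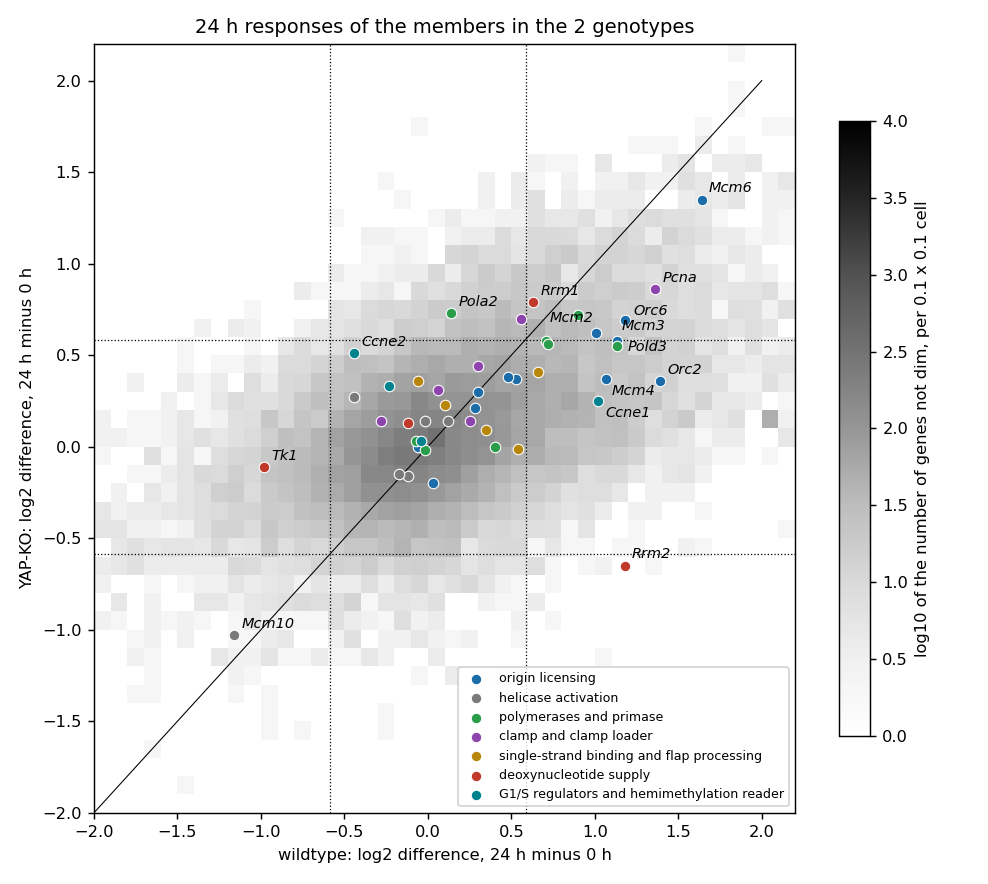
Response in wildtype (x axis) and in YAP-KO (y axis), both as log2 differences of 24 h minus 0 h; coloured points are the 45 genes by role, grey cells count the genes that were not dim, dotted lines mark 1.5-fold and the diagonal marks equal responses. Mcm6 and Pcna are high on both axes, Orc2, Mcm4 and Ccne1 lie well below the diagonal (1.39 and 0.36, 1.07 and 0.37, 1.02 and 0.25), and Rrm2 is higher in wildtype (1.18) and lower in YAP-KO (-0.65).

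Origin licensing held 6 of the 15 genes higher in wildtype. Mcm6, a subunit of the helicase ring, had the largest difference: its level went from 5.37 to 7.01 in wildtype (3.12-fold, or 1.64 on the log2 scale) and from 5.10 to 6.45 in YAP-KO (1.35). The 24 h arrays were both above the 0 h arrays, and the wildtype one was the higher. Mcm3 read 5.25 and 5.39 at 0 h (wildtype, then YAP-KO, here and below) and 6.38 and 5.97 at 24 h, differences of 1.13 and 0.58. Mcm2 read 4.92 and 4.80 at 0 h, against 5.93 and 5.42 at 24 h, differences of 1.01 and 0.62. Mcm4 read 5.57 and 5.93 at 0 h, against 6.64 and 6.30 at 24 h. Its differences were 1.07 in wildtype and 0.37 in YAP-KO, where the higher 0 h level takes up part of the gap: from the wildtype 0 h array the YAP-KO 24 h array was 0.73 higher. Mcm5, another ring subunit gene, was close to the dim level at 0 h (4.46 and 4.48) and read 4.99 and 4.85 at 24 h. The 5 listed ring genes, Mcm2 to Mcm6, thus all had both 24 h levels above both 0 h levels, unlike Mcm10, given below. The 24 h level of all 5 was lower in YAP-KO, by differences of -0.14 (Mcm5) to -0.56 (Mcm6), none of which reached 1.5-fold.

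The subunits of the origin recognition complex were not uniform. Orc2 was highest on the wildtype 24 h array at 8.22, against 6.83 and 7.08 at 0 h and 7.44 in YAP-KO at 24 h. Its differences over time were 1.39 in wildtype and 0.36 in YAP-KO. Orc6 read 5.81 and 5.94 at 0 h, against 6.99 and 6.63 at 24 h, differences of 1.18 and 0.69. Orc4 read 8.69 and 8.63 at 0 h, against 9.17 and 9.01 at 24 h, and its responses of 0.48 and 0.38 stayed under 1.5-fold, as did those of Orc3 (0.28 and 0.21). Orc1 was dim on every array, at 3.82 to 3.88. The loading factors CDC6 and CDT1 stood apart from the helicase they load: Cdt1 was 0.30 higher in both genotypes, at levels of 4.28 to 4.70, and Cdc6 was dim, with differences of 0.03 and -0.20. No detection calls were used, so a small difference at such levels may be one between undetected genes. Dim genes as a group spread from -0.58 to 0.20 in wildtype and from -0.51 to 0.27 in YAP-KO over time (5th to 95th percentile).

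The promoters of 38 of the 46 genes were in the RefSeq promoter table (mouse build GRCm38.p6, windows from 250 bases before to 50 after a transcript start), and a search of their letters asked what the members share beyond the list. The 38 genes had 46 promoter windows. The E2F words TTTCCCGC, TTTCGCGC, TTTGCCGC and TTTGGCGC, on either strand, overlaps allowed, were in 14 of these 46 promoters (30.4%), against 2.26% of all 32851 promoters and 2.85% of those of protein-coding genes. By gene, 14 of the 38 (36.8%) had a word, against 3.29% of protein-coding genes. Member promoters were also richer in G and C, with a median of 61.8% against 56.3% for protein-coding genes, and the words are GC-rich. CCAAT was in 54.3% of member promoters (37.4% of all), the E-box CACGTG in 15.2% (7.15%), TTTGAA, part of a cell cycle element of mitotic genes, in 10.9% (17.9%), and GGAATG, the core word of the TEAD factors that YAP binds, in 4 of 46, or 8.7% (14.7%).

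The printed windows are the 180 bases before the start in 5 genes, chosen for the largest wildtype responses (Mcm6, Orc2, Pcna) and for promoters with several E2F words (Mcm6, Mcm5, Rfc3). Mcm3, with a wildtype response of 1.13, also had several E2F words but is not printed. Its words began at 20 and 39 after the start, outside such bases. Capitals mark E2F words and CCAAT on either strand. Orc2 lies at chr1:58505110-58505289 (minus strand, the first of its 2 listed starts), Mcm6 at chr1:128359706-128359885 (minus strand), Mcm5 at chr8:75109329-75109508 (plus), Rfc3 at chr5:151651209-151651388 (minus) and Pcna at chr2:132253181-132253360 (minus).
Mcm6: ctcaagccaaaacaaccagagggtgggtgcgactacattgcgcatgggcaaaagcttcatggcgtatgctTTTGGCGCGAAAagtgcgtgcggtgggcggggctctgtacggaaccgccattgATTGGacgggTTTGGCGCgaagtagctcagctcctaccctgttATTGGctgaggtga
Orc2: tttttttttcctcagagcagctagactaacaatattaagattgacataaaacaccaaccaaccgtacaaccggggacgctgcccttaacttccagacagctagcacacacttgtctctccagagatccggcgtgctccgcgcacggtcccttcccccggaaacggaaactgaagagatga
Mcm5: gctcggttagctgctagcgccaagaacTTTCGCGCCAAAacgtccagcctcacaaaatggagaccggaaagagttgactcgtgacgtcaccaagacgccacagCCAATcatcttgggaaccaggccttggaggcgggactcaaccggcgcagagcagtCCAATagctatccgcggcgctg
Rfc3: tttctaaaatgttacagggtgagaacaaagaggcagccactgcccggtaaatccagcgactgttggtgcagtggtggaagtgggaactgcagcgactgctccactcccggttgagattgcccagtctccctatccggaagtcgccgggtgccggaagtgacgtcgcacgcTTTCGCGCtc
Pcna: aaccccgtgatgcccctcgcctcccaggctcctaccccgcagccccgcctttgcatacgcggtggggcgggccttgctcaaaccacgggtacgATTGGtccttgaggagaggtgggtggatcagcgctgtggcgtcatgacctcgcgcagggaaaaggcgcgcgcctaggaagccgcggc
Mcm6 had 3 E2F words, 2 of them overlapping at positions -110 and -106 before the start and the other at -47. Mcm5 had an overlapping pair at -153 and -149. Rfc3, a clamp loader gene whose response was 0.06 in wildtype and 0.31 in YAP-KO, had 1 at -10 and another that begins at the start site. Pcna, with a response of 1.36, had none of these words in its window and 1 CCAAT in reverse. The printed bases of Orc2, whose response was 1.39, held none of these words and no CCAAT. Outside them, the windows of its listed starts did hold CCAAT in reverse, at -45 and at 21 from a start.

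Of the 14 measured genes with an E2F word 3 were at least 1.5-fold higher in wildtype (Mcm3, Mcm6 and Pold3), or 21.4%, near the 23.3% of genes not dim, and their median response was 0.19. This group held the dim genes Cdc6 and Orc1 and others close to the dim level, such as Uhrf1, Cdt1 and Pold1. Of 23 without a word 10 were higher (43.5%, median 0.54), and 2 of the 8 with no listed promoter were (25.0%, median 0.02). These are descriptions of letters in 1 window per start site, and a word is not a binding site.

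None of the 6 helicase activation genes was 1.5-fold higher in either genotype. These are Cdc45 and Gins1 to Gins4, whose products join the MCM ring to form the active helicase, and Mcm10, needed for that step. Of genes not dim 23.3% were as much higher in wildtype and 13.5% in YAP-KO. With only 6 genes, a count of 0 is not far from these shares. Mcm10 went the other way, from 6.16 to 5.0 in wildtype and from 6.57 to 5.54 in YAP-KO, differences of -1.16 and -1.03, with both 24 h arrays below both 0 h arrays. Cdc45 read 5.19 to 5.37 and Gins1 5.19 to 5.41 over the 4 arrays. Gins4 was the one that set the genotypes apart at 0 h, at 8.24 in wildtype and 7.61 in YAP-KO, and read 7.80 and 7.88 at 24 h. The remaining GINS genes differed over time by -0.02 to 0.14.

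Of the 8 polymerase and primase genes 4 were at least 1.5-fold higher in wildtype (Prim1, Prim2, Pold2 and Pold3). In YAP-KO 2 were (Prim2 and Pola2), and none was lower in either genotype. Among genes not dim, 23.3% were as much higher in wildtype and 13.5% in YAP-KO, and 12.0% and 6.02% were lower. With only 8 genes, the count of 2 in YAP-KO is not far from its background. Prim2, the large primase subunit gene, read 6.16 and 6.04 at 0 h, against 7.06 and 6.76 at 24 h (0.90 and 0.72). Prim1, the catalytic primase subunit gene, was 0.72 and 0.56 higher. Pold3, an accessory subunit gene of polymerase delta, read 7.23 and 7.17 at 0 h, against 8.36 and 7.72 at 24 h. Its differences were 1.13 and 0.55, and Pold2 was 0.71 and 0.58 higher. The wildtype value of Pold2 fell within 1.5-fold after quantile normalization (0.40) and from the YAP-KO 0 h array (0.58). Those of Prim1, Prim2 and Pold3 stayed past it in both settings (0.62, 0.66 and 0.82 after quantile normalization). Pold1 and Pole, which encode the catalytic subunits of polymerases delta and epsilon, stayed at 4.52 to 4.56 and 4.57 to 4.64. Pola1, the catalytic subunit gene of polymerase alpha, differed by 0.40 and 0.00. Its partner Pola2 had the reverse pattern, named here after its values were seen: 5.54 and 5.53 at 0 h, then 5.68 and 6.26 at 24 h.

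Pcna, encoding the sliding clamp, read 8.58 and 8.51 at 0 h, against 9.94 and 9.37 at 24 h. These are differences of 1.36 (2.57-fold) in wildtype and 0.86 in YAP-KO, with no overlap between the times and a 24 h gap between the genotypes of -0.57. The clamp loader genes differed less. Rfc4 was 0.56 and 0.70 higher, and the other 4 loader genes differed by -0.28 (Rfc5 in wildtype) to 0.44 (Rfc2 in YAP-KO).

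Among the single-strand binding proteins, Rpa2 was 0.66 and 0.41 higher, at levels of 4.71 to 5.37. Rpa1, the large subunit gene, read 7.0 and 6.95 at 0 h, against 7.35 and 7.04 at 24 h, and Rpa3 differed by -0.06 and 0.36. Lig1, the ligase gene that seals Okazaki fragments, differed by 0.10 and 0.23. Fen1, the flap nuclease gene, was dim: it read 3.78 and 3.95 at 0 h, against 4.32 and 3.94 at 24 h.

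The enzymes of deoxynucleotide supply held the widest disagreement between the genotypes. Rrm2, the small subunit gene of ribonucleotide reductase, read 5.67 and 5.63 at 0 h. At 24 h it was 6.85 in wildtype and 4.98 in YAP-KO, so that the highest and the lowest of its 4 levels were both at 24 h. Its responses were thus opposite in sign, 1.18 against -0.65, and the YAP-KO minus wildtype difference at 24 h was -1.87, the largest of the 45 genes in size. Rrm1, the large subunit gene of the same enzyme, did not follow it, at 7.08 and 6.96 at 0 h, against 7.71 and 7.75 at 24 h (0.63 and 0.79). Rrm2b, the p53-inducible small subunit gene, read 5.95 to 6.12 on all arrays. Tyms, encoding thymidylate synthase, differed by -0.12 and 0.13.

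Tk1, the thymidine kinase gene, was highest on the wildtype 0 h array, at 6.36 against 5.38 to 5.59 on the other 3. Its wildtype response of -0.98 therefore rests on that array: from the YAP-KO 0 h array it was -0.21. On the RefSeq map Tk1 overlaps Afmid, a formamidase gene that read 9.75 and 9.30 at 0 h, against 7.18 and 7.94 at 24 h. Its part in the Tk1 values was not tested.

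The regulators of entry into S phase were not uniformly higher either. Ccne1, encoding cyclin E1, read 5.22 and 5.21 at 0 h, then 6.24 in wildtype and 5.46 in YAP-KO, responses of 1.02 and 0.25. Its paralog Ccne2 went from 5.50 to 5.06 in wildtype and from 4.79 to 5.30 in YAP-KO, again with the wildtype 0 h array the highest. Ccne2 overlaps Ints8, which read 8.44 to 8.66, and the part of that gene was not tested. E2f1, the best known activating E2F gene, differed by -0.23 and 0.33. Uhrf1, whose product reads hemimethylated DNA behind the fork, read 4.35 to 4.46, near the dim level.

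Before acetaminophen the genotypes were close. None of the 45 genes was 1.5-fold higher in YAP-KO (2.77% of all named genes and 3.45% of those not dim were) and 3 were lower, or 6.67% (against 3.51% and 4.87%). These were Tk1 (-0.77), Ccne2 (-0.71) and Gins4 (-0.63), and the median was -0.04. At 2-fold 0 of 45 were higher (0.675% and 1.02%) and 0 lower (0.577% and 0.876%). At 24 h again none was 1.5-fold higher in YAP-KO (5.62% and 8.22%), and 4 were lower, or 8.89% (8.36% and 13.4%): Rrm2 (-1.87), Orc2 (-0.78), Ccne1 (-0.78) and Pold3 (-0.64). Rrm2 alone of the 45 was 2-fold lower, where 3.48% of all named genes and 5.73% of those not dim were, and 0 were 2-fold higher (1.99% and 3.23%). The share of lower genes was near or below the background, and the median was -0.06 against 0.04 and -0.02.

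The difference of responses, YAP-KO minus wildtype, was at least 1.5-fold in 8 genes. It was positive in 4 (Ccne2 0.95, Tk1 0.87, Gins4 0.71 and Pola2 0.59), or 8.89% (10.5% of all named genes and 13.8% of those not dim). It was negative in 4 (Rrm2 -1.83, Orc2 -1.03, Ccne1 -0.77 and Mcm4 -0.70), or 8.89% (11.2% and 16.4%). At 2-fold 0 were positive (3.75% and 5.66%) and 2 negative, Rrm2 and Orc2 (4.71% and 7.49%). With each array centred on its median the split was 3 positive and 7 negative. This contrast uses all 4 arrays and so shares them with those above. Ccne2, Tk1 and Gins4 are the same genes that were lower in YAP-KO at 0 h.

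**Figure D3:**
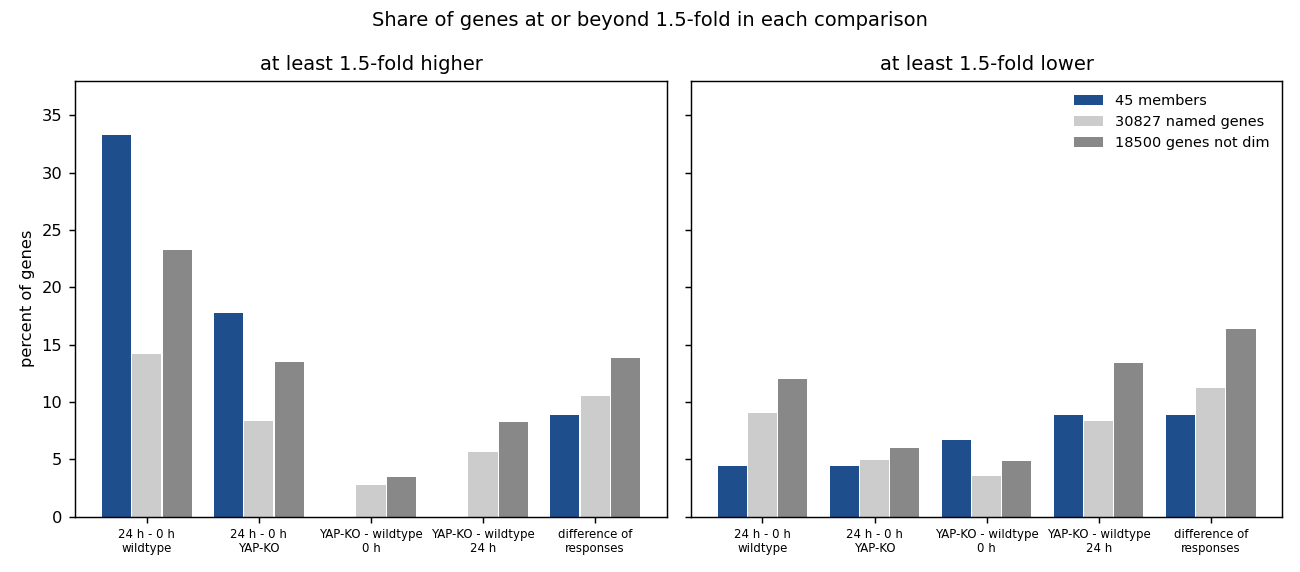
Percent of genes (y axis) at least 1.5-fold higher (left) or lower (right) in each of the 5 comparisons, for the 45 genes, the 30827 named genes and the 18500 genes that were not dim. The 45 genes exceed both backgrounds among genes higher at 24 h in wildtype (33.3% against 14.2% and 23.3%) and in YAP-KO (17.8% against 8.35% and 13.5%), and no member bar stands on the higher side between genotypes at either time. At 2-fold, which is not drawn, the YAP-KO share was below both backgrounds (2.22% against 2.87% and 4.74%).

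Several genes that act before S phase were at least 1.5-fold higher at 24 h in both genotypes. None of 24 measured G2 and mitosis genes was in either, but 13 of these were dim. Of 9 measured G1 cyclin, kinase and pocket protein genes, 6 (66.7%) were at least 1.5-fold higher in wildtype and 4 (44.4%) in YAP-KO, where 23.3% and 13.5% of the genes not dim were. Cdk4, the kinase partner of D cyclins, was 1.41 and 1.52 higher, Ccnd2, encoding cyclin D2, 1.39 and 1.22, and Rbl1, encoding the pocket protein p107, 1.18 and 1.06. Rbl2, encoding p130, a pocket protein of quiescent cells, went the other way, by -1.83 in wildtype and -0.57 in YAP-KO.

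The CDK inhibitor gene Cdkn1a, encoding p21, had the largest response of the 6 related lists. It read 8.70 in wildtype at 0 h, 12.30 in YAP-KO at 0 h, and 14.54 and 13.16 at 24 h (wildtype, then YAP-KO). Its response was thus 5.84 in wildtype and 0.86 in YAP-KO, where the 0 h level was 3.6 above that of wildtype. Of the other 6 inhibitor genes only Cdkn1b in YAP-KO (0.80) passed 1.5-fold, and 4 were dim.

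Of 9 further E2F and DP factor genes, 4 (44.4%) were higher in wildtype (E2f4 1.37, E2f3 1.14, E2f5 1.04 and Tfdp1 0.97) and 2 lower (Tfdp2 -0.77 and E2f8 -0.75). In YAP-KO 1 (11.1%) was higher, E2f5 at 0.69. Among 32 further replication and S phase genes the shares were near the background: 6 were higher in wildtype (18.8%, against 14.2% of all named genes and 23.3% of those not dim) and 3 in YAP-KO (9.38%, against 8.35% and 13.5%), and 0 were lower. The largest wildtype differences were those of Pold4 (1.87), Mtbp (1.5) and the maintenance methyltransferase gene Dnmt1 (1.38). Of 9 checkpoint and repair genes, 0 were higher and 1, Atm (-0.77), was lower in wildtype, and 0 passed in YAP-KO.

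None of 24 measured G2 and mitosis genes passed 1.5-fold in either genotype over time. In wildtype 14.2% of all named genes and 23.3% of those not dim were higher, and 9.05% and 12.0% lower. In YAP-KO 8.35% and 13.5% were higher, and 4.97% and 6.02% lower. Their medians were -0.17 and -0.07, and their range in wildtype was -0.32 to 0.38, with Cks2 at the top. Mki67, the gene of the proliferation antigen Ki-67, read 5.21 and 5.11 at 0 h, against 5.23 and 5.36 at 24 h. Of the 24, 13 were dim, so the array gives little room to see a decrease in them. Increases past 1.5-fold were also rare among dim genes, whose 95th percentile was 0.20 in wildtype and 0.27 in YAP-KO. Without detection calls, how far the count speaks for those 13 was not tested.

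**Figure D4:**
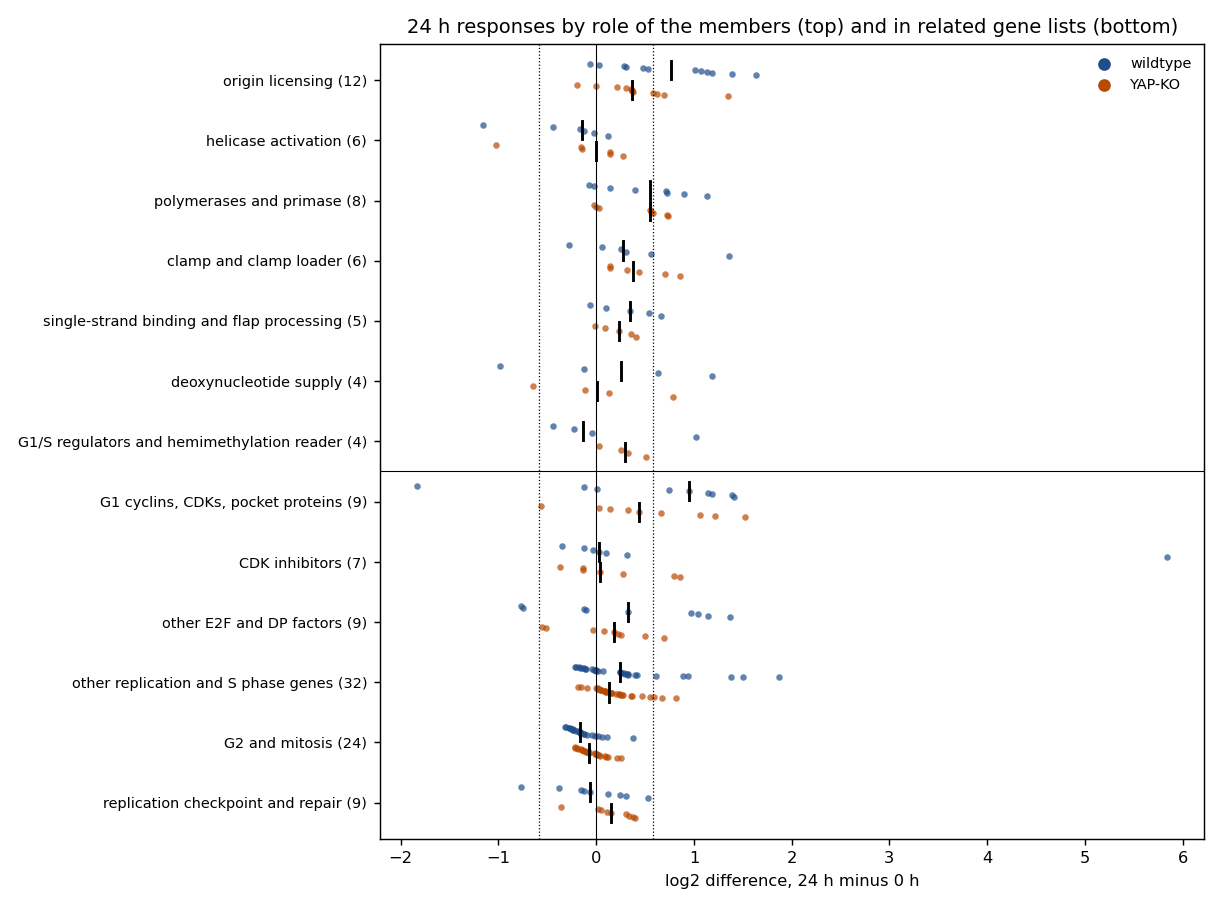
Log2 difference of 24 h minus 0 h (x axis) for each gene, by role of the 45 genes (above the line) and in 6 related lists (below it), in wildtype (blue) and YAP-KO (orange); black bars are medians, dotted lines 1.5-fold, and the number of genes is in brackets. Origin licensing has the highest wildtype median of the 7 roles (0.77), helicase activation lies around 0, and all G2 and mitosis genes stay within 1.5-fold.

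Markers of other cell types moved with time as well. Of genes not dim 23.3% were at least 1.5-fold higher over time in wildtype and 13.5% in YAP-KO. All 9 monocyte and macrophage markers were at least 1.5-fold higher in wildtype and 8 of 9 in YAP-KO, and their summed level went from 11.41 to 13.94 and from 11.13 to 13.80 on the log2 scale. Neutrophil markers (5 of 9 higher and 2 lower in wildtype, 4 of 9 higher in YAP-KO) summed to 8.44 and 8.56 at 0 h and to 11.34 and 9.51 at 24 h, and at 24 h 5 of 9 were lower in YAP-KO than wildtype by 1.5-fold, among them S100a8, S100a9 and Retnlg, while Ly6g and Camp differed by 0.53 and 0.18. Other lists also held markers lower by 1.5-fold in that comparison: monocyte and macrophage 3 of 9 (1 higher) and Kupffer cell 2 of 6. Endothelial markers had 1 of 6 lower, stellate cell 1 of 6 (1 higher) and cholangiocyte 1 of 4. In that comparison 8.36% of all named genes and 13.4% of those not dim were lower, so counts of 1 are not far from the background. Rrm2, Orc2, Ccne1 and Pold3 were the ones of the 45 genes lower there, and a link to any cell type was not tested. Kupffer cell markers were higher for 4 of 6 in wildtype and 2 of 6 in YAP-KO, where Clec4f was lower (-0.70), summing to 11.60 and 11.52, then 13.04 and 12.15.

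Endothelial markers summed to 12.34 and 12.28 at 0 h and to 14.01 and 12.48 at 24 h, with 2 of 6 higher and 2 lower (Kdr -0.63 and Oit3 -0.62) in wildtype and 3 higher in YAP-KO. Lyve1, with the largest wildtype difference of these, read 8.06 and 8.80, then 13.57 and 9.69. Stellate cell markers (3 of 6 higher and 1 lower in each genotype, Lrat by -1.32 in wildtype and Reln by -0.95 in YAP-KO) went from 9.95 and 10.09 to 10.78 and 10.66. The 4 measured cholangiocyte markers held 1 that was higher, Sox9 (2.53 and 1.47). Lymphocyte markers, 0 of 7 of which passed 1.5-fold and 5 of which were dim, summed to 6.71 to 6.87, and of the 2 measured erythroid markers Alas2 was lower (-2.24 and -1.86). Of 7 hepatocyte markers 4 were at the ceiling on all arrays, and Hnf4a was lower at 24 h by differences of -0.90 and -1.45. Cps1 and Tat differed by -0.76 and -0.56 in wildtype and by 0.04 and 0.05 in YAP-KO. Both were at or near the ceiling on every array but wildtype at 24 h. The part of these cell types in the replication gene values was not tested.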

How the data were processed

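Mouse liver RNA was measured on 4 single-channel arrays, labelled with the GeneChip WT Plus kit per the labels. The deposited table held 65956 probe sets as log2 values, a scale read from their range, and the authors' summarisation, background correction and normalization are not given in the sources used here, so values were used as deposited. Array number limits precision: 1 array per group, a pool of 3 mice.

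The platform annotation gave probe sets their genes (31388 with 1 gene, 1362 with several, 33206 with none), with symbols updated to GRCm38.p6 through Entrez identifiers. For 423 genes with several probe sets the brightest was taken. Differences were counted at 1.5-fold and 2-fold in 5 comparisons, with Python 3.11.15 and pandas 2.3.3, beside the same counts over all named genes, and the counting was checked on simulated data. No p-value was computed. The members and the 15 related and marker lists were chosen with earlier results of these data known.

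Genes given on all arrays were those not dim with a 2-fold difference in any comparison, the member with the highest mean in each role, and up to 3 genes per other list by size of the wildtype response. Others named were picked after their values were seen. Alternatives were centring, quantile normalization, percentile filters, 2-fold, the mean of probe sets and the other genotype's 0 h array.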

Additional observations from a re-analysis of the deposited data

Results flagged for a closer look

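Rrm2 was singled out because its 24 h responses ran in opposite directions, both beyond 1.5-fold: 1.18 in wildtype and -0.65 in YAP-KO. It was the 1 gene of the 45 with this pattern, each direction rests on a single pair of arrays, and the difference between the genotypes was not tested. With the other genotype's 0 h array subtracted the values were 1.22 and -0.69.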

How the results depend on the processing

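Of 95 recomputed counts and medians, 16 moved, by over 1.5 times for a count or 0.1 for a median; the mean of all probe sets changed nothing, as each gene had 1. The wildtype median was 0.40 after centring, 0.16 after quantile normalization and 0.59 over the 26 genes above the 60th percentile. The YAP-KO median was 0.16 from the wildtype 0 h array. Over those 26 genes the median was -0.15 for the difference of responses and -0.27 between genotypes at 24 h. At 2-fold 1 gene was lower in wildtype, 1 higher and 1 lower in YAP-KO, 0 lower in YAP-KO at 0 h and 1 at 24 h. The difference of responses had 0 higher and 2 lower. From the YAP-KO 0 h array 1 gene was lower in wildtype. Quantile normalization gave 1 gene higher in YAP-KO at 24 h, and centring gave 7 lower in the difference of responses. Fewer genes pass a larger fold by construction, and centring adds the same 0.10 to every wildtype response. Quantile normalization shifted the wildtype median of all genes not dim by -0.08. For the rest the cause was not tested. Of 42 single-gene values past 1.5-fold, 0 of 232 recomputed values changed sign and 10 fell within 1.5-fold. Many of the 232 could not differ: the probe set mean (42) and the 40th and 60th percentile filters (42 and 37) leave a gene's value as it is. The 10 were 5 under quantile normalization, 4 from the other genotype's 0 h array and 1 under centring. The count with both 24 h arrays above both 0 h arrays, an alternative added after seeing the data, was 32 after centring and 27 after quantile normalization. The share over all genes was not recomputed under either scaling, so these counts have no background. Centring raised the median response of all named genes too, by 0.10 in wildtype and 0.05 in YAP-KO. No paired analysis was possible because each group has 1 array. Without detection calls, genes near 4.32 have no known floor.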

Other observations

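On the RefSeq map 20 of the 46 genes overlap another gene and 13 of them a protein-coding one, and whether the probe sets read 1 strand was not examined. Orc5 shared its probe set with the pseudogene Gm15421, and that probe set read 7.21 and 7.50 at 0 h (wildtype, then YAP-KO) and 8.13 and 7.55 at 24 h, an order of arrays in which wildtype at 24 h was highest, as for Orc2. Over the 45 genes the wildtype 24 h array alone held the highest level for 22 (48.9%), against 38.3% of the genes that were not dim.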
